A study of Saccharomyces cerevisiae with 64 samples.

Results

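The regions described here are the chromatin immunoprecipitation peaks that lie near the centromeres of budding yeast. A peak was counted when its midpoint fell within 25 kb of the centromere of its chromosome, on the sacCer3 build, with each centromere position given to the nearest 0.1 kb. The rule used position only, and it took 4059 of the 56230 peaks in 62 libraries. Of the other peaks, 49384 lay on the rest of the same 16 chromosomes and 2787 on a sequence named chrXVII, to which no nuclear chromosome corresponds. The choice of 25 kb did not fall on a step in the data, with 63 peaks in the last kb inside the boundary and 66 in the first kb outside it.

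Spp1 is a subunit of Set1C (COMPASS), the enzyme complex that methylates lysine 4 of histone H3, and its PHD finger binds that methylated tail. In meiosis Spp1 also binds Mer2 on the chromosome axis through a region that holds its CXXC motif, and so links genes marked by Set1C to the machinery that makes DNA double-strand breaks. Budding yeast centromeres are short defined sequences on which a kinetochore is built. The chromatin around them is rich in cohesin, and meiotic breaks and crossovers are known to be rare there.

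All strains were SK1 diploids that were grown in pre-sporulation medium (SPS) and moved to potassium acetate sporulation medium (SPM), in which meiosis proceeds. The 4 myc strains carried SPP1-13xmyc, BRE2-13xmyc, spp1PHDΔ-13xmyc or spp1CXXCΔ-13xmyc on both chromosome copies. They were leu2/LEU2 and HIS4/his4, and carried trp1/trp1 with ura3/ura3. Bre2 is another Set1C subunit. Each myc strain gave 1 library in SPS and 1 each at 0, 2, 4 and 6 h in SPM, by anti-myc. The 3 H3 strains carried SPP1-3xHA on both copies, were trp1-1/trp1-1, lys2/lys2 and ho::LYS2/ho::LYS2, and shared the leucine, histidine and uracil markers. Their genotype lists hht1Δ::HphMX/hht1Δ::HphMX with hht2Δ::KanMX4/hht1Δ::HphMX. Their H3 came from pCEN-ARS(HHT2,HHF2,TRP1), a centromeric plasmid, or from the same plasmid with HHT2K4R or HHT2R2A, which change lysine 4 or arginine 2 of the H3 tail. They gave 2 libraries per time at 0, 2, 4 and 6 h, by anti-HA, and the wild-type H3 strain carries the plasmid too. In the competition series one chromosome copy carried SPP1-13xmyc and the other NatMX4-pCUP1-1-yGFP-SPP1, whose promoter is copper-inducible, for libraries taken with anti-GFP. The anti-myc libraries of that series carry a genotype label homozygous for SPP1-13xmyc. The competition libraries numbered 8 with anti-GFP and 10 with anti-myc, at 4.5, 5, 5.5, 6 and 6.5 h.

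The data are peak lists without read counts, so depth is unknown, and no list of an untagged strain was analysed here to give a background level. Nuclear peaks numbered 598 to 2075 per library in the myc and H3 strains and 40 to 670 in the competition series. Near-centromere peaks numbered 36 to 165 and 1 to 54 in the same libraries. Nothing in the labels says that replicates were grown separately, so the p-values cover the spread between libraries, which may be technical. The deleted HHT1 gene, which lies 18.3 kb from the centromere of chromosome II, gave a direct check of the labels. It held a peak in 0 of 24 H3-strain libraries, 18 of 20 myc-strain libraries and 2 of 18 competition libraries.

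Peaks were slightly denser near centromeres than on the rest of the same chromosomes in most libraries. The direction depended on the window, since at 10 kb the mean log2 ratio was below 0 in 6 of 9 strains. The windows made up 6.64% of the length of the 16 chromosomes and held 7.60% of the nuclear peaks. They also held 6.93% of the coding genes, at 52.0 genes per 100 kb against 49.6 on the rest. The density ratio, that is peaks per kb in the windows over peaks per kb on the rest, was above 1 in 56 of 62 libraries. In the 44 libraries of the myc and H3 strains it ran from 0.689 to 1.39 with a median of 1.12, and in the 18 competition libraries from 0.335 to 3.43 with a median of 2.10. The Wilson 95% interval of the share of peaks near centromeres lay above 6.64% in 9 of the 44 and in 12 of the 18, and below it in 1 library, wild-type H3 at 6 h, replicate 1. These intervals cover counting error only.

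In the myc strains the lowest ratio was that of full-length Spp1-myc at 6 h. Full-length Spp1-myc had a ratio of 1.21 in SPS, then 1.15, 1.06, 1.24 and 0.836 in successive SPM samples. Its 6 h library was the only one of the 5 below 1. Bre2-myc had ratios of 1.17 in SPS and 1.17, 1.05, 1.04 and 1.07 in SPM. PHD-deleted Spp1 had 1.08, 1.11, 1.16, 1.22 and 1.11, and CXXC-deleted Spp1 had 1.08, 1.12, 0.981, 1.15 and 1.13. At 6 h both deletion strains and Bre2-myc lay above full-length Spp1-myc, with 1 library each and no test. Between 0 h and the later times the 4 strains differed by 0.07 in mean log2 ratio (exact permutation test within strains, 4 against 12 libraries, two-sided p = 0.461, adjusted over 7 tests p = 0.623). This difference changed sign under 4 alternatives and was -0.20 with equal list sizes (exact p = 0.105, adjusted p = 0.185).

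**Figure D1:**
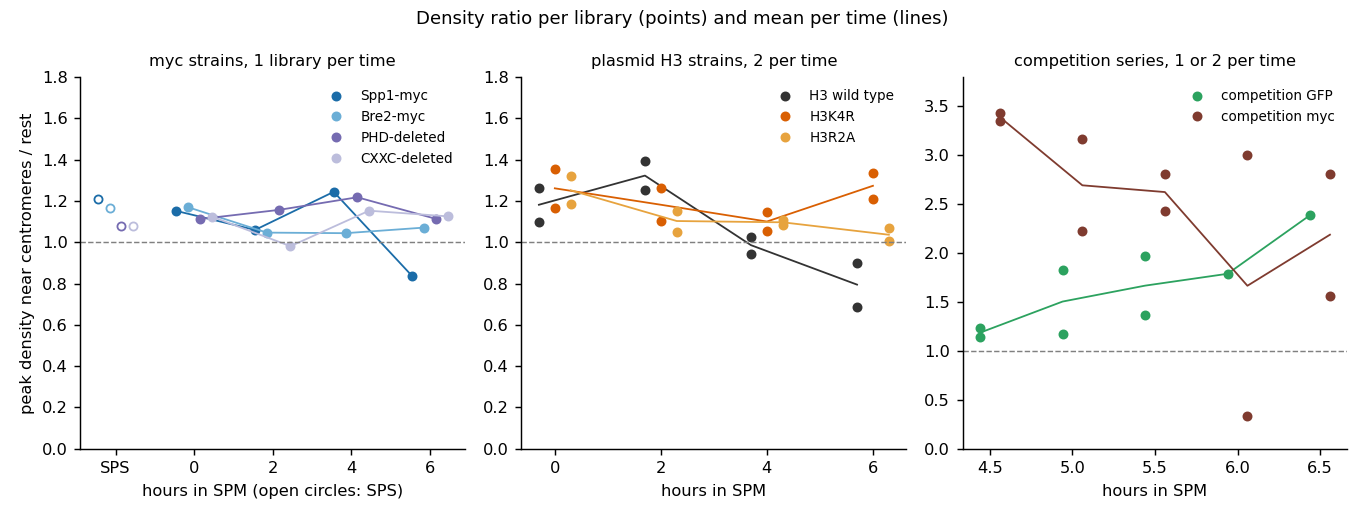
The density ratio near centromeres over the rest of the chromosomes is plotted against hours in SPM, 1 point per library with lines through the means, in the myc strains (left, open circles for SPS), the H3 strains (middle) and the competition series (right, with a taller axis). Points of different strains are shifted sideways to keep them apart, and the wild-type H3 libraries fall below 1 at 6 h (0.689 and 0.901) while both mutants stay above it.

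Among the H3 strains the wild type alone went below an even distribution at late times. Wild-type H3 replicates 1 and 2 had ratios of 1.10 and 1.26 at 0 h. The pairs were 1.25 and 1.39 at 2 h, 1.03 and 0.945 at 4 h, and 0.689 and 0.901 at 6 h. The 4 libraries of 0 and 2 h were all above the 4 of 4 and 6 h. H3K4R had 1.17 and 1.36, then 1.10 and 1.26, 1.05 and 1.15, and 1.34 and 1.21. H3R2A had 1.18 and 1.32, then 1.15 and 1.05, 1.11 and 1.09, and 1.01 and 1.07. All 8 libraries of each mutant were above 1, against 5 of 8 of the wild type.

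The mutants did not differ from the wild type beyond the spread over all times. H3K4R was 0.19 higher in log2 ratio (exact permutation test within times, 8 against 8 libraries, p = 0.117, adjusted p = 0.274), and H3R2A was 0.09 higher (exact p = 0.336, adjusted p = 0.589). Both comparisons use the same wild-type libraries. By time, in hours, the H3K4R difference was 0.09 (0), -0.16 (2), 0.16 (4) and 0.69 (6), with no overlap between the replicates at 4 and 6 h. The H3R2A difference was 0.09, -0.26, 0.15 and 0.39, with no overlap at 2, 4 and 6 h. With 2 libraries against 2 no single time was tested. The excess of 0 h over later times was smaller than in the wild type in both mutants, by a difference (mutant minus wild type) of -0.13 in H3K4R (exact permutation test, p = 0.534, adjusted p = 0.623) and -0.01 in H3R2A (exact p = 0.946, adjusted p = 0.946).

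Over the 3 H3 strains together, the ratio at 0 h exceeded that at 2 to 6 h by 0.17 in log2 (exact permutation test within strains, 6 against 18 libraries, p = 0.0875, adjusted p = 0.274). The division of the times decided this result. With 0 and 2 h set against 4 and 6 h, chosen after the ratios were seen, the difference was 0.22 (exact p = 0.00399, adjusted p = 0.0279). Under the same division the excess of early over late times was smaller in the mutants than in the wild type, with a difference (mutant minus wild type) of -0.46 in H3K4R (exact p = 0.0556, adjusted p = 0.0972) and -0.36 in H3R2A (exact p = 0.0324, adjusted p = 0.0756). The 0 h lists were also longer, with a median of 1501 nuclear peaks against 987 later, and with equal list sizes the difference was 0.20 (exact p = 0.0144, adjusted p = 0.0504). Chromosome by chromosome, the summed wild-type H3 ratio was above 1 on 10, 12, 7 and 4 of 16 chromosomes at 0, 2, 4 and 6 h. In H3K4R the counts were 10, 10, 9 and 10, and in H3R2A 12, 10, 9 and 10. At 6 h the wild type was lowest on chromosome XVI, with 0.224 against 1.35 in H3K4R and 1.55 in H3R2A, and the ratio on chromosome III was 1.43 against 4.26 and 5.86. These ratios rest on few peaks. Over all times the 8 wild-type libraries had 37 near peaks on XVI and 55 on III. The 8 H3R2A libraries had 53 near peaks on III and 79 on its rest. Both chromosomes were chosen after the ratios were seen.

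Near against rest was also tested within each strain by swapping the labels in each library, with 27 tests adjusted together (9 strains, and the density ratio, peak width and score of each). The libraries of a strain share the same 16 windows and the same genes in them, so they are not independent samples of centromeres. The test therefore speaks only of agreement among libraries, and an effect of centromere position as such was not tested. No strain passed. H3K4R, H3R2A and the competition GFP libraries were above 1 in 8 of 8 libraries each, with mean log2 ratios of 0.27 ± 0.13, 0.17 ± 0.12 and 0.68 ± 0.41 (SD, n = 8, exact p = 0.00781, the smallest possible, adjusted p = 0.0527). The competition myc libraries were above 1 in 9 of 10 with a mean of 1.26 ± 0.85 (SD, n = 10, exact p = 0.00586, adjusted p = 0.0527). Wild-type H3 had a mean of 0.08 ± 0.32 (SD, n = 8, exact p = 0.531, adjusted p = 0.956). The myc strains had 5 libraries each, for which the smallest exact p is 0.0625.

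The competition series had the highest ratios, and chromosome I held a large part of its near-centromere peaks, 74 of 187 in the anti-GFP libraries and 62 of 94 in the anti-myc libraries. The anti-GFP libraries had ratios of 1.14 and 1.23 at 4.5 h, 1.18 and 1.83 at 5 h, 1.37 and 1.97 at 5.5 h, 1.79 at 6 h and 2.39 at 6.5 h. The anti-myc libraries had 3.35 and 3.43, then 2.22 and 3.17, 2.81 and 2.44, 3.00 and 0.335, and 1.56 and 2.81. The 0.335 rests on 1 near peak among 43. At 4.5, 5 and 5.5 h the replicates of the 2 antibodies did not overlap at any time, and the anti-GFP libraries were 1.04 lower in log2 ratio (exact permutation test within times, 6 against 6 libraries, p = 0.00926, the smallest possible, adjusted p = 0.0648).

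Chromosome I has 1.89% of the sequence and 1 of the 16 windows. It held 34.0% of the near-centromere peaks of the 6 anti-GFP libraries in that comparison and 65.2% of those of the 6 anti-myc libraries, against a median of 7.06% in the 44 myc- and H3-strain libraries. Its share of all nuclear peaks had a median of 15.6% in the 8 anti-GFP libraries and 39.0% in the 10 anti-myc libraries, against 1.99% in the myc and H3 strains. Without chromosome I the median ratio of the 8 anti-GFP libraries went from 1.58 to 0.868 and that of the 10 anti-myc libraries from 2.81 to 1.33. The difference between the antibodies then became -0.33 (exact p = 0.519, adjusted p = 0.659), in a comparison added after the shares were seen. When each near count was set against the rest of its own chromosome, the difference was -0.36 (exact p = 0.130, adjusted p = 0.302). In the H3 strains the same 2 changes moved the H3K4R difference to 0.20 and 0.18.

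**Figure D2:**
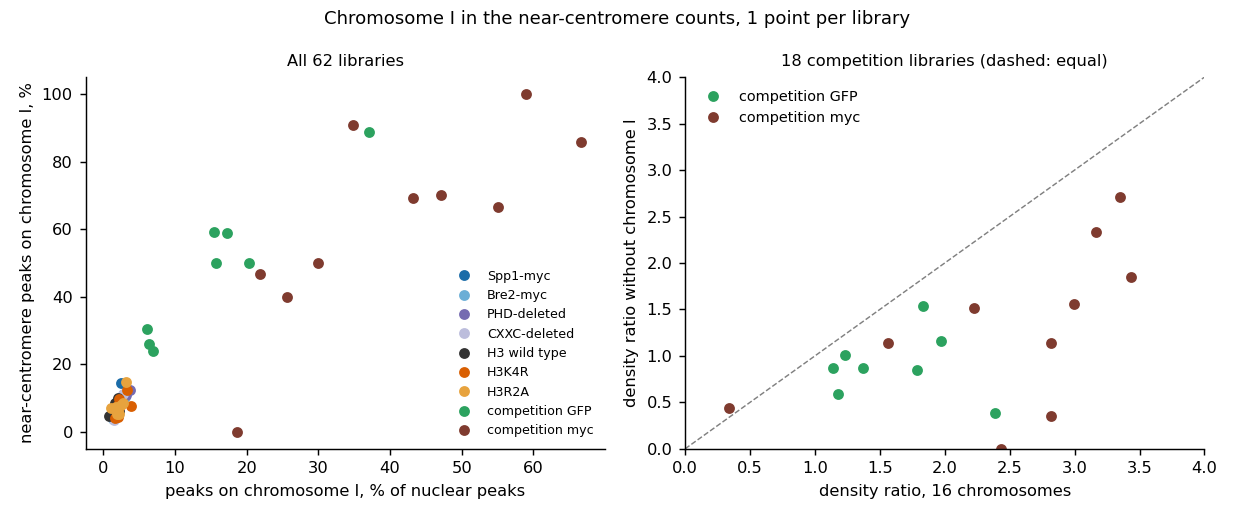
On the left, the percent of a library's near-centromere peaks that lie on chromosome I is plotted against the percent of all its nuclear peaks on that chromosome, for 62 libraries. On the right, the ratio without chromosome I is plotted against the ratio over 16 chromosomes for the 18 competition libraries, and 17 of them lie under the dashed line of equality.

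Several genes to the left of the chromosome I centromere held peaks in many competition libraries. TFC3 (chrI:147594-151166), which encodes a subunit of the transcription factor TFIIIC, held a peak in 6 of 8 anti-GFP and 8 of 10 anti-myc libraries, against 0 of 24 in the H3 strains and 1 of 20 in the myc strains. SYN8, an endosomal SNARE, and its neighbour NTG1, a base excision repair glycosylase, were each occupied in 7 of 8 and 9 of 10. Their median peaks, at chrI:128372-128658 and chrI:128355-128572, overlap. SYN8 was also occupied in 14 of 24 H3-strain and 14 of 20 myc-strain libraries and NTG1 in 11 and 16. CYS3, which makes cysteine from cystathionine, was occupied in 5 of 8 and 6 of 10, and in 20 of 24 H3-strain libraries, and the vacuolar sorting gene VPS8 in 4 of 8 and 6 of 10, against 2 of 24 and 5 of 20. Away from chromosome I, CIT1 and MIX17 were occupied in 7 of 8 anti-GFP libraries and in 1 and 2 of 10 anti-myc libraries. The anti-GFP lists were longer, with a median of 206 nuclear peaks against 56.

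The ratio ranged more widely between centromeres than between the myc and H3 strains, whose medians ran from 1.06 to 1.19. The strain ratios pool all windows and those of the centromeres do not, so a narrower range between strains follows in part from pooling. Summed over all libraries, it was above 1 on 10 chromosomes and below 1 on 6. Chromosome III was highest, with 377 near peaks and a ratio of 3.16, followed by XIII (1.61) and IV (1.59). The ratios of VII, VIII, I, XIV, XVI, II and X came next, down to 1.17 on X. Chromosome IX was lowest with 0.443, after XII (0.612), VI (0.627), XV (0.644), V (0.655) and XI (0.813). Not every strain lay on the side of the sum: XI was at 1.22 in wild-type H3, and X and XVI were at 0.882 and 0.879 in Spp1-myc. In the 44 myc- and H3-strain libraries, chromosome III was above 1 in every one, and chromosomes VI and IX were below 1 in every one. By strain, the summed ratio on III ran from 2.24 in wild-type H3 and 2.35 in Spp1-myc to 4.47 in PHD-deleted Spp1. On IX it ran from 0.224 in H3R2A, where 5 of 8 libraries had no near peak, to 0.627 in Spp1-myc.

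The window of chromosome III holds 28 coding genes, a number within the 22 to 29 of all windows. The rest of that chromosome held few peaks, 635 over 62 libraries. Within its window lie CIT2, the peroxisomal citrate synthase, ADY2, an acetate transporter, PGK1, phosphoglycerate kinase, and LEU2, an enzyme of leucine synthesis. CIT2 was occupied in 48 of 62 libraries, ADY2 in 49, PGK1 in 37 and LEU2 in 35.

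**Figure D3:**
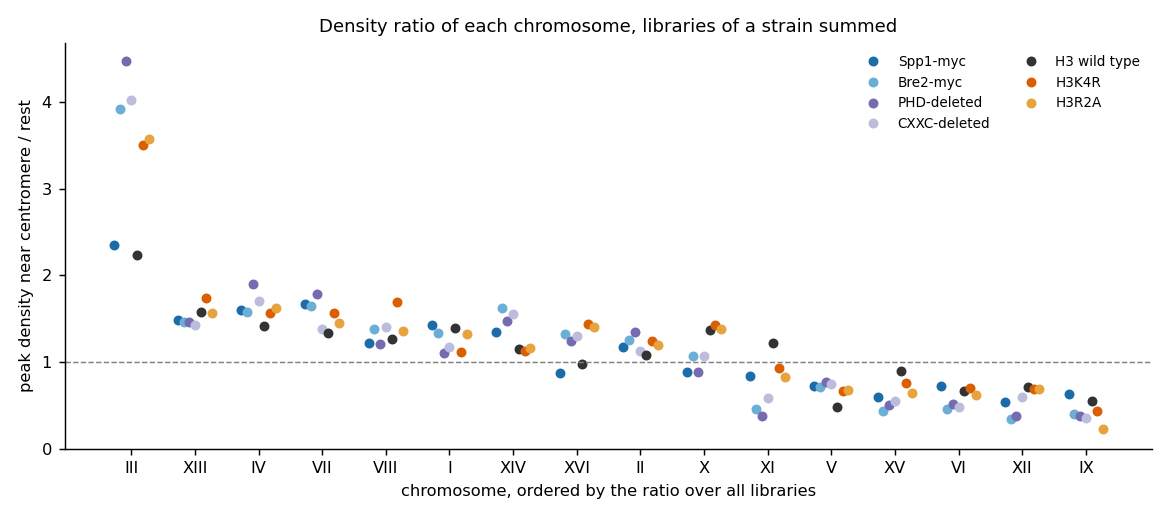
The density ratio of each chromosome is plotted for the 7 myc and H3 strains, with the libraries of a strain summed and chromosomes ordered by the ratio over all libraries. Chromosome III lies between 2.24 and 4.47 in every strain, and every strain lies below 1 on chromosomes V, VI, IX, XII and XV. Strains lie on both sides of 1 only on chromosomes X, XI and XVI.

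Within the windows the peaks were not spread evenly. In the 44 myc- and H3-strain libraries, density relative to the nuclear mean was 1.12 in the first kb, 1.19 from 1 to 2 kb and 1.12 from 2 to 5 kb. It dropped to 0.82 from 5 to 10 kb and then rose to 1.24 from 10 to 15 kb and 1.34 from 15 to 20 kb, before 1.02 from 20 to 25 kb. Gene density does not follow this order, with 55.0 coding genes per 100 kb in the 5 to 10 kb bin and 46.9 in the 10 to 15 kb bin. From 25 to 50 kb the relative peak density was 1.04, and from 50 to 100 kb it was 1.16. At 25 kb the mean log2 ratio was below 0 in none of the 9 strains, unlike at 10 kb.

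**Figure D4:**
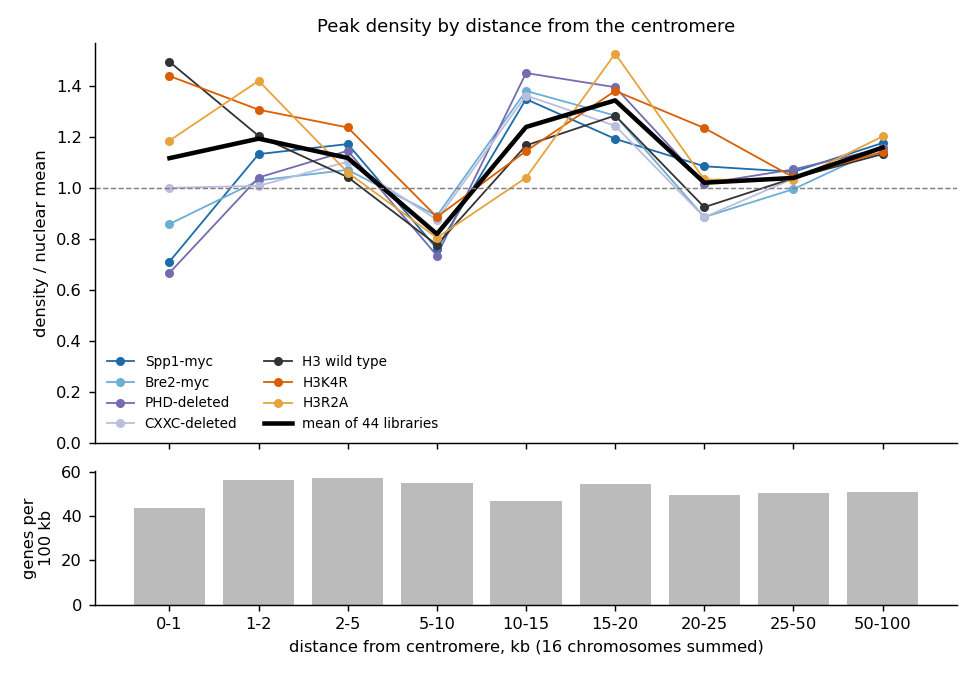
Peak density relative to the nuclear mean of each library is plotted against distance from the centromere for the 7 myc and H3 strains, with the mean of 44 libraries in black and coding gene density per bin below. The black line dips to 0.82 between 5 and 10 kb and reaches 1.34 between 15 and 20 kb.

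Near-centromere peaks resembled the others in shape and in position relative to genes. Their median width was 251 bp, as on the rest. Of the near peaks 91.2% had their midpoint inside a coding gene and 11.6% in the 500 bp before one, against 88.6% and 12.7% of the rest. Peaks within 300 bp of a tRNA gene made up 0.788% near centromeres, which is 32 peaks, and 0.456% elsewhere. The windows, with 6.64% of the length, hold 32 of the 275 tRNA genes. The order was reversed in wild-type H3, with 0.136% near and 0.232% elsewhere, and in the competition libraries, with 0.0% near. Width did not pass in any strain in the near-against-rest tests. Neither did the authors' score, ranked within each list, where the lowest p was that of H3R2A, 4.20 ± 3.99 percentile points higher near centromeres (SD, n = 8, exact p = 0.0156, adjusted p = 0.0844).

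At the centromeres themselves, 152 peaks had midpoints within 1 kb, at 14 of the 16. Chromosomes III and XV had none, with nearest peaks 2207 and 2571 bp away. At II and XVI they were found in both tag sets. At the centromere of II, 15 of 24 H3-strain and 13 of 20 myc-strain libraries had a peak, about 0.9 kb to the left, near chrII:237181-237381 in H3K4R. At XVI, 11 of 24 and 15 of 20 had one, over the start of CIT3, which encodes a citrate and methylcitrate synthase.

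The centromere of chromosome VI held peaks mainly in the H3 strains, and it was not the only one. A peak within 1 kb was present in 20 of 24 H3-strain libraries, 1 of 20 myc-strain libraries and 0 of 18 competition libraries. In wild-type H3 the 5 peaks were each 151 bp wide with a median position of chrVI:148491-148641. A peak lay across the given centromere position, 148.5 kb, in 5 of 8 wild-type H3, 4 of 8 H3K4R and 6 of 8 H3R2A libraries, and in 0 of the 38 libraries of the other strains. Over time, such a peak was found in 0 of 6 H3-strain libraries at 0 h, 4 of 6 at 2 h, 5 of 6 at 4 h and 6 of 6 at 6 h. These peaks ranked low or middling in their lists, with median score percentiles of 49.1 in wild-type H3, 21.0 in H3K4R and 15.1 in H3R2A for peaks within 1 kb. The H3 strains are those with the pCEN-ARS plasmid, and the labels do not say which centromere it carries; its part in these peaks was not tested. Tag and antibody also differ between these strains and the others and cannot be told apart from the plasmid. Peaks across the given position were also found once each at the centromeres of XIII and XIV, both in wild-type H3 at 6 h, replicate 2, and once at that of I, in an anti-GFP competition library at 5 h. At the centromere of IV, 13 of 24 H3-strain and 4 of 20 myc-strain libraries had a peak within 1 kb, and the closest was 125 bp away. The counts in the same order were 11 and 1 at XI and 11 and 3 at XIII. Others went the other way, such as V with 0 and 4 and XVI with 11 and 15.

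TRP1 is carried by the plasmid and also lies in a window, at 12.5 kb from the centromere of IV. It held a peak in 24 of 24 H3-strain libraries, 13 of 20 myc-strain libraries and 0 of 18 competition libraries. Its peaks were wide, with a median of 851 bp. HHF1, the histone H4 gene beside HHT1, was occupied in 23 of 24 H3-strain and 17 of 20 myc-strain libraries, and LEU2 in 19 and 16. Reads from plasmid and chromosomal copies of TRP1 cannot be separated in peak lists.

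Occupied genes are those with at least 1 peak whose midpoint fell inside the gene or in the 500 bp before its start. Of the 416 coding genes with midpoints in the windows, 289 were occupied in at least 1 library (69.5%, against 67.6% of the 5586 other genes), and 41 in at least 31 of 62 libraries (9.86% against 7.70%).

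The 12 genes most often occupied include CIT1, CIT2, MIX17, SOD2 and ADY2. CIT1, the mitochondrial citrate synthase, lies 1.54 kb from the centromere of XIV (chrXIV:629622-631061) and was occupied in 24 of 24 H3-strain and 20 of 20 myc-strain libraries. CIT2 (chrIII:120946-122328) had the same counts, and its peaks were 1251 bp wide at the median, nearly the whole gene. MIX17, a mitochondrial intermembrane-space protein 4.43 kb from the centromere of XIII, was occupied in 24 and 18, and SOD2, the mitochondrial superoxide dismutase, in 22 and 20. ADY2 was occupied in 21 and 17.

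SSA1, a cytosolic Hsp70 chaperone at chrI:139503-141431, was occupied in 56 of 62 libraries, more than any other near-centromere gene. Its counts were 23 of 24 in H3 strains, 20 of 20 in myc strains, 7 of 8 in anti-GFP and 6 of 10 in anti-myc competition libraries. RPN11, the deubiquitinase of the proteasome lid, was occupied in 44 libraries, GCN4, the activator of amino acid synthesis genes, in 46, and LSP1, a component of eisosomes at the plasma membrane, in 45. SSA1 has a near-identical paralogue elsewhere in the genome, and reads shared with it could be placed at either copy.

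Lists of genes by function had few members in the windows, which hold 6.93% of all coding genes. Of 29 acetate use and gluconeogenesis genes, 6 were near centromeres. They were CIT1 and the transporter gene ATO2 on XIV, CIT2 and ADY2 on III, and CIT3 and ICL2 on XVI. In wild-type H3 at 0 h all 6 were occupied in both libraries, and at 6 h 3 and 4 were. In Spp1-myc 4, 5, 5 and 5 were occupied at 0, 2, 4 and 6 h. The near share lay on either side of that of the other 23 members. It was 58.3% against 65.2% in wild-type H3 at 6 h and 66.7% against 95.7% in Spp1-myc at 0 h, but 83.3% against 78.3% in Spp1-myc at 2 h and 100% against 87.0% in Bre2-myc at 6 h. Of 37 early meiotic genes, 2 were near. MSH4, which acts in crossover formation, was occupied in 4 of 4 myc-strain libraries at 6 h and 0 of 12 at 0 to 4 h. Of the 35 members elsewhere, 0.0% to 2.86% were occupied at 0 h and 40.0% to 45.7% at 6 h in the myc strains. REC8, the meiotic cohesin subunit, was occupied in 1 of 62 libraries. Of 138 ribosomal protein genes, 4 were near. RPL14B, next to the centromere of VIII, was occupied in 4 of 4 myc-strain libraries at 0 h and in none later. In the H3 strains it was occupied in 5, 4, 2 and 3 of 6 at 0, 2, 4 and 6 h, and after 0 h only in the mutants. Out of 2 libraries per time, wild-type H3 had 1, 0, 0 and 0. The same counts were 2, 2, 1 and 2 for H3K4R, and 2, 2, 1 and 1 for H3R2A. The 134 members elsewhere took a similar course in the myc strains, with 77.6% to 94.0% occupied at 0 h and 0.746% to 2.24% at 2 h. Their mean share fell from 39.2% at 0 h to 3.73% at 2 h for wild-type H3. It fell less for the mutants, from 63.4% to 51.9% (H3K4R) and from 44.4% to 22.8% (H3R2A). The glycolytic genes PGK1 and TDH2 were occupied in 18 and 19 of 20 myc-strain libraries. Of the 19 glycolytic genes elsewhere, 47.4% to 89.5% were occupied in the SPM libraries of these strains. The translation factor list had 3 of 33 near, EFB1, SUI2 and HEF3, and the heat shock list 2 of 35, SSA1 and SIS1. RPL14B, TDH2 and HEF3 have close paralogues.

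At 0 h more near-centromere genes were occupied than later. In the H3 strains 19 of 252 tested near genes were occupied more often at 0 h than at 2 to 6 h and 2 less often (Fisher's exact test, 6 against 18 libraries, Benjamini-Hochberg adjusted p at most 0.05). Unlike the permutation tests, this test pooled the libraries over strains and over the later times. Over all 3501 genes tested the calls were 6.71% higher and 0.686% lower, against 7.54% and 0.794% of the near genes, so these shares are close to the background. In the myc strains 23 of 216 near genes were higher at 0 h and 2 lower (4 against 12 libraries), which is 10.6% and 0.926% against a background of 13.3% and 1.06%. Longer lists went with this result. The 0 h lists of the myc strains held 1316 to 2075 nuclear peaks and the later ones 728 to 1304. When lists were cut to their higher-scoring peaks, the 23 became 3 and the 19 of the H3 strains became 12. The share over all genes was not computed for the cut lists, and the part of list length itself was not tested.

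Leaving out 1 library moved these counts, and the share over all genes was not computed for the changed counts. The 19 became 5 without wild-type H3 0 h replicate 1 or without H3K4R 0 h replicate 2, 11 without H3K4R 0 h replicate 1, and 10 and 11 without H3R2A 0 h replicates 1 and 2. The 23 became 12, 12, 11 and 14 without the 0 h library of Bre2-myc, Spp1-myc, PHD-deleted or CXXC-deleted Spp1. The 2 lower genes of the H3 strains became 1 without any of these 5 H3-strain libraries. The 2 lower genes of the myc strains became 0 without any 1 library other than Spp1-myc at 0 h.

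The genes named for the H3 strains were occupied in nearly all libraries at 0 h and few later. DNM1, a dynamin of mitochondrial fission 1.77 kb from the centromere of XII, was occupied in 6 of 6 H3-strain libraries at 0 h and 1, 0 and 0 of 6 at 2, 4 and 6 h (Fisher's exact test, adjusted p = 0.00828). QCR10, a subunit of respiratory complex III beside the centromere of VIII, had the same counts and p. By the same Fisher's exact test TIM10, an import chaperone of the intermembrane space, went from 6 of 6 to 2, 0 and 0 (adjusted p = 0.00998), and MIC19, of the inner membrane organizing complex, from 6 of 6 to 2, 1 and 0 (adjusted p = 0.0212). The clathrin adaptor gene APL1 went from 6 of 6 to 2, 0 and 0, and GAL3, the galactose sensor, from 5 of 6 to 0. QCR10, MIC19 and GAL3 also passed in all 3 alternative settings of promoter window or score. DNM1, APL1 and TIM10 passed in 2 of 3. Their lowest differences in the share of occupied libraries were 16.7, 16.7 and 38.9 percentage points (Fisher's exact test, adjusted p up to 0.566, 0.566 and 0.315).

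In the myc strains the largest differences were tied, and 6 of these genes, first in alphabetical order, are named. NOP1, fibrillarin, RER2, which makes dolichol, PRS3, a PRPP synthetase, LDB16, a lipid droplet protein, the transporter gene ADP1 and CYS3 were each occupied in 4 of 4 libraries at 0 h and 0 of 12 later (Fisher's exact test, adjusted p = 0.00718). CYS3 kept its peak in the H3 strains, in 6 of 6 libraries at 0, 2 and 4 h and 2 of 6 at 6 h. ADP1, GAL3 and TIM10 were among the genes that passed in both tag sets.

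LEU1 and MET3 took the opposite course. LEU1, isopropylmalate isomerase of leucine synthesis (chrVII:476313-478652), was occupied in 1 of 6 H3-strain libraries at 0 h and 17 of 18 later (Fisher's exact test, adjusted p = 0.0212), and in 1 of 4 and 12 of 12 in the myc strains (adjusted p = 0.0498). Its peaks had a median width of 951 bp and reached 2751 bp. MET3, ATP sulfurylase of sulfate assimilation, was occupied in 1 of 6 H3-strain libraries at 0 h and 18 of 18 later (Fisher's exact test, adjusted p = 0.00969) and in 0 of 20 myc-strain libraries. The median MET3 peak, at chrX:455855-455984, lay upstream of the gene, which starts at 456239. YDR010C, a short reading frame near TRP1 and GAL3, went from 1 of 4 to 12 of 12 in the myc strains (Fisher's exact test, adjusted p = 0.0498). It was occupied in 4 of 4 SPS libraries, and in the H3 strains in 3, 2, 3 and 3 of 6. In the myc strains YDR010C and LEU1 passed in 1 of 3 alternative settings of promoter window or score. In the H3 strains LEU1 passed in 3 of 3 and MET3 in 2 of 3.

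**Figure D5:**
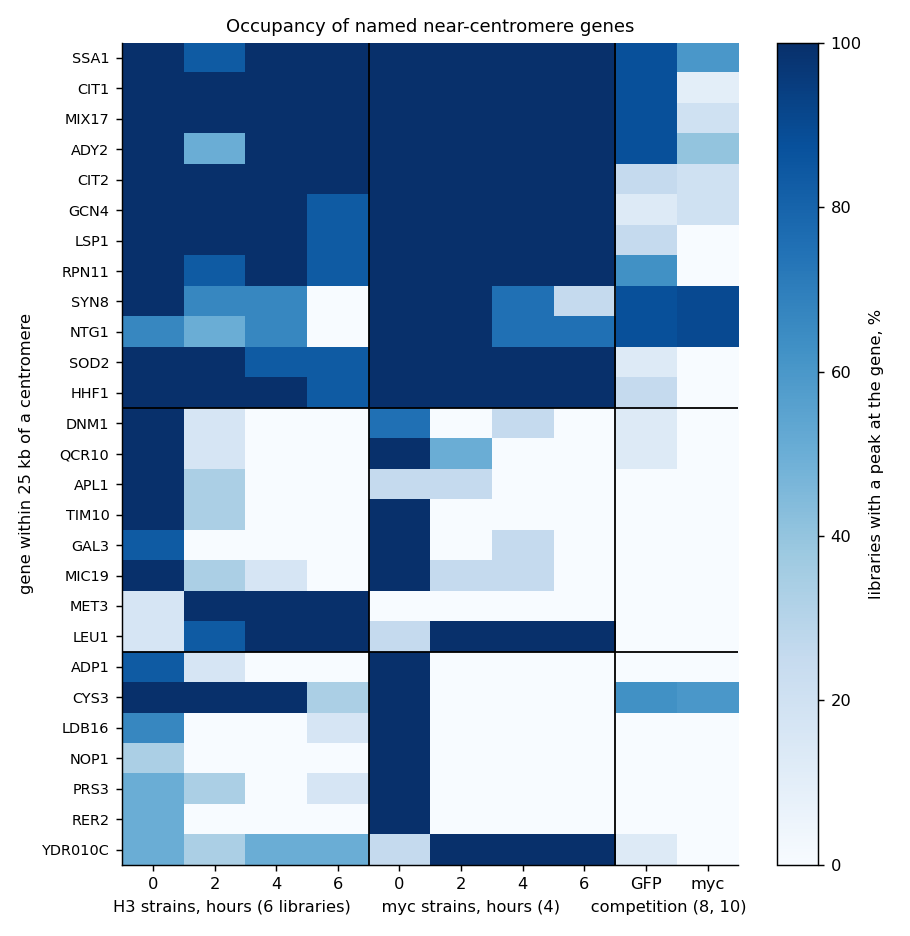
The percent of libraries with a peak is shown for 27 near-centromere genes, in the 12 most often occupied (top), those called by time in the H3 strains (middle) and the rest of those called in the myc strains (bottom), by hours in SPM and for the competition series. Most genes of the top block are dark at all times in both tag sets, with SYN8 and NTG1 at 0 of 6 H3-strain libraries at 6 h among the exceptions, and LEU1 and MET3 are pale at 0 h and dark later.

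No near-centromere gene passed in the comparisons of H3 mutants with the wild type. In H3K4R 0 of 241 tested near genes were called in either direction (Fisher's exact test, 8 against 8 libraries). The background was 0.0% of 3382 genes in each direction. An unadjusted p under 0.05 was found for 9 near genes, which is 3.73% against 5.82% of all genes tested. EFB1, a translation elongation factor subunit, and SUT2 were each occupied in 8 of 8 H3K4R and 1 of 8 wild-type libraries (Fisher's exact test, adjusted p = 0.225). Both passed without wild-type H3 0 h replicate 1, with 8 of 8 against 0 of 7 (adjusted p = 0.0416 by Fisher's exact test). It was the only library whose removal gave a call. It is also the 1 wild-type library that held these peaks, so its removal alone made the split complete and decides nothing. RPL14B was occupied in 7 of 8 against 1 of 8 (adjusted p = 0.462 by Fisher's exact test). SIS1, an Hsp40 co-chaperone, was occupied in 0 of 8 against 6 of 8 (adjusted p = 0.462 by Fisher's exact test), and FOX2, of peroxisomal fatty acid oxidation, in 3 of 8 against 8 of 8 (adjusted p = 0.606).

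In H3R2A 0 of 227 near genes were called (Fisher's exact test, background 0.0% of 3183 genes in each direction). Of them 4 had an unadjusted p under 0.05, which is 1.76% against 2.73% of all genes tested. EFB1 and RPL14B were occupied in 6 of 8 H3R2A libraries and FOX2 in 3 of 8, with the wild-type values above, and PAN1, an endocytic actin regulator, in 0 of 8 against 6 of 8 (adjusted p = 1.0 for each by Fisher's exact test). In the competition series 0 of 72 near genes were called (6 against 6 libraries, background 0.0% of 870 genes in each direction). Of them 2 had an unadjusted p under 0.05, which is 2.78% against 3.33% of all genes tested. APC11, of the anaphase-promoting complex, was occupied in 6 of 6 anti-GFP and 0 of 6 anti-myc libraries (Fisher's exact test, adjusted p = 0.171), and CIT1 in 6 of 6 against 1 of 6 (adjusted p = 0.455). The anti-GFP lists were longer, with a median of 218.5 nuclear peaks against 63.5. Over all 870 genes the share of occupied libraries was 33.3 percentage points higher with anti-GFP at the median. The part of list length was not tested.

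In the full-length Spp1-myc strain, fewer near-centromere genes were occupied after 0 h. Occupied near genes numbered 156, 75, 89 and 56 of 416 at 0, 2, 4 and 6 h, which is 37.5%, 18.0%, 21.4% and 13.5%, against 34.0%, 17.2%, 18.2% and 16.6% of all coding genes. With 1 library per time there was no test. At all 4 times 31 near genes were occupied, or 7.45% against 6.18% of all, and SSA1, CIT2, GCN4, PGK1, LEU2, SOD2, CIT1 and ADY2 had the highest-ranked peaks. At 0 h and not later 74 were, or 17.8% against 16.5% of all, among them the chaperonin gene CCT8, EFB1, NOP1 and TIM10. At 4 and 6 h, and neither in SPS nor at 0 h, 11 were, or 2.64% against 2.20%, led by FOX2, PDH1 and CIT3. PDH1 and CIT3 lie 3.16 and 1.11 kb from the centromere of XVI, and with ICL2, 12.1 kb from it, they encode enzymes of the methylcitrate cycle, which breaks down propionate. ICL2 was occupied in 0 of 5 Spp1-myc libraries. The absence at 0 h was not shared by the other myc strains, since PDH1 and CIT3 were each occupied in 3 of 4 myc-strain libraries at 0 h and in 4 of 4 later. In the H3 strains PDH1 was occupied in 5, 6, 5 and 5 of 6 libraries at 0, 2, 4 and 6 h, CIT3 in 5, 4, 3 and 2, and ICL2 in 5, 4, 1 and 1.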

How the data were processed

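Chromatin immunoprecipitation sequencing was described for 64 samples in the labels. The authors deposited 1 peak list for each of 62. Input and untagged samples were not analysed here. Per the submitters' processing notes the build was sacCer3, with BWA and deepTools named. The peak caller is not given in the sources used here, nor is any control. Each deposited peak has coordinates, a width and the authors' score, a fraction between 0.5 and 1. Depth is unknown.

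Genes came from a RefSeq table of the R64 assembly, and chromosome length was taken as the last gene or peak end. The log2 density ratio used a pseudocount of 0.5 on the near count; printed ratios used none. Libraries were compared by two-sided exact permutation tests, adjusted (Benjamini-Hochberg) over 7 between-group tests or 27 near-against-rest tests. Occupancy of genes was compared with Fisher's exact test and adjusted across every gene that had a peak in the comparison. The gene tests pooled libraries without strata of strain or time. The threshold was 0.05. The gene test was tested on simulated data. Python 3.11.15, SciPy 1.17.1, NumPy 2.4.6, pandas 2.3.3 and matplotlib 3.10.9 were used.

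Named genes were the 12 near-centromere genes occupied in most libraries, up to 6 called genes per direction and comparison by difference in occupied libraries (4 where none was called), up to 8 per Spp1-myc class by score, altered marker and histone loci, and near-centromere members of 6 lists. The centromeres and chromosomes described singly were chosen after their values were seen. The members and lists were chosen with earlier results of these data known. Genotype and antibody fields were followed where sample descriptions named another tag, and SPS was kept apart from SPM 0 h. Alternatives are given in the closing section.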

Additional observations from a re-analysis of the deposited data

Results flagged for a closer look

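One library stood apart within its strain. In H3R2A at 4 h, replicate 1, 14.7% of the near-centromere peaks lay on chromosome I, and the next of the 8 H3R2A libraries had 8.47%. It was the 1 value found among 18 screened groups of 4 to 10 libraries, where chance alone gives about 1 in 20. The H3R2A comparison without chromosome I had a log2 difference of 0.09 from wild-type H3, as with it.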

How the results depend on the processing

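Of the alternative values of the 26 main results, 505 kept direction and side of the threshold, or stayed within 1.5 times for counts, 39 counts moved further, 23 values reversed and 1 newly passed. Of those of 40 named gene tests 148 were unchanged in this sense, 29 no longer passed and 1 reversed. For the 0 h comparison of the myc strains the log2 difference of 0.07 became -0.053 with a 50 kb window, -0.14 for bases covered, -0.17 for the higher-scoring part of each list and -0.20 with equal list sizes. The H3R2A minus wild-type difference in the excess of 0 h over later, -0.01, became 0.045 with a 50 kb window, 0.036 as a mean over chromosomes, 0.13 percentage points as a share of peaks and 0.0099 without altered loci, and ran from -0.11 to 0.089 when libraries were left out. Setting 0 and 2 h against 4 and 6 h gave 0.22 in the H3 strains (exact p = 0.00399). With a 10 kb window the near-against-rest means became -0.14 in Spp1-myc, -0.038 in Bre2-myc, -0.16 in PHD-deleted, -0.034 in CXXC-deleted, -0.040 in wild-type H3 and -0.013 in H3R2A, and without chromosome I -0.10 in the anti-GFP libraries. The cause was not tested. Near genes higher at 0 h became 12 in the H3 strains and 3 in the myc strains for the higher-scoring part of each list. Genes lower at 0 h became 1 with a 250 bp promoter in the H3 strains, and 0 with 1000 bp or the higher-scoring part in the myc strains. Left-out libraries gave 0 to 24 higher and 0 to 3 lower genes in the H3 strains, 11 to 21 and 0 to 2 in the myc strains, and 0 to 2 higher in H3K4R. The 0 comes from leaving out a whole replicate series, where 3 against 9 libraries cannot go below p = 0.00455 by Fisher's exact test. With all 24 libraries, 20.2% of the tested near genes had an unadjusted p under 0.05 by that test, against 17.9% of all genes tested. YDR010C in H3K4R became 12.5 percentage points higher than wild type with a 1000 bp promoter.

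Replicate numbers did not pair the libraries: correlations of same-numbered deviations ran from -0.28 to 0.31. With the replicate block the log2 differences stayed 0.19, 0.09, 0.17 and -1.04, with adjusted exact p of 0.359, 0.562, 0.325 and 0.188, and no call changed. Lists of 40 to 110 peaks in the anti-myc competition libraries limit the precision of their ratios.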
